A study of Homo sapiens with 2 samples.

Results

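The genes described here are the SREBP pathway and the cholesterol and fatty acid synthesis it controls, 34 genes chosen by name out of the 21115 genes measured. They fall into 4 classes, 5 SREBP regulators, 16 sterol enzymes, 5 genes of sterol transport and 8 fatty acid enzymes, and each of the 34 was matched to a single row. The RNA came from HCT116, a cell line derived from a human colorectal carcinoma, and was sequenced after 8 h with 1 µM CB-5083 and after 8 h with the solvent DMSO. CB-5083 inhibits the ATPase p97 (gene VCP), which pulls ubiquitinated proteins out of membranes so that the proteasome can degrade them. Each treatment was a single library, so the differences lack any replicate check and no p-value is given. In bulk RNA of this kind, fewer cells with a transcript and less of it per cell cannot be told apart.

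SREBP transcription factors are made as precursors in the membrane of the endoplasmic reticulum (ER). When ER cholesterol is low, the escort protein SCAP carries them to the Golgi apparatus, where proteases release the active factor, which switches on genes of sterol and fatty acid supply. When sterols are plentiful, INSIG proteins hold SCAP in the ER. INSIG1 is itself a short-lived protein that ubiquitin ligases mark for degradation and that p97 helps to extract from the ER membrane, and its gene is a classic SREBP target.

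The CB-5083 library held 31997658 estimated counts and the DMSO library 29273687. Levels are given in CPM, the gene's counts relative to the size of its library, after TMM scaling, which corrects for a few very abundant transcripts taking up a library. Calls of higher or lower needed a log2 ratio of at least 1 in size, taken after adding 1 CPM to both levels, and a level of 5 CPM or more in either library. Folds are ratios of CPM without the added 1, and their 95% exact intervals cover counting error only. Folds, intervals and the words level, higher and lower refer to TMM scaling unless another scaling is named. Scaling by library totals shifted the median log2 ratio over all genes by -0.31, so whether an interval includes 1 can depend on the scaling. Of 10 colon epithelial markers, EPCAM, CDH1, KRT8, KRT18 and KRT19 lay above 47 CPM in both libraries, while KRT20, CDX1, CDX2, VIL1 and LGALS4 lay at 3.76 CPM or below. Of the markers of other cell types, COL1A1 was the highest at 3.48 CPM with CB-5083 and 2.52 CPM with DMSO, and PTPRC (leukocytes), DCN (fibroblasts), CDH5 (endothelium), APOA1 (hepatocytes) and FABP4 (adipocytes) were at 0 in both libraries. The summed epithelial markers stood at 1671 CPM with CB-5083 and 1122 CPM with DMSO. Of the 5 that reached 5 CPM, 1 (CDH1) was called higher, where 7.22% of all such genes were. The part of these markers in the results below was not tested.

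With CB-5083, 5 of the 34 genes were higher, 1 was lower and 28 were neither. Those higher were STARD4, NPC1, INSIG2, HSD17B7 and HMGCS1, and the lower one was LSS. Over all 9543 genes that reached 5 CPM, 7.22% were called higher and 4.91% lower. In hg19, as the files place them, the called genes span chr5:110834022-110848233 (STARD4), chr18:21108363-21166581 (NPC1), chr2:118846050-118867597 (INSIG2), chr1:162760496-162782608 (HSD17B7), chr5:43289493-43313595 (HMGCS1) and chr21:47608360-47648738 (LSS). With library totals in place of TMM, 3 members were higher (STARD4, NPC1 and INSIG2) and 2 lower (LSS and INSIG1), against a background of 3.86% higher and 10.3% lower. Only 27 of the 34 members reached 5 CPM. The other 7, MVK, PMVK, MVD, TM7SF2, ABCA1, ABCG1 and FADS2, could not be called at any fold. The median log2 ratio was 0.03 over the 33 members with a mean of at least 1 CPM and 0.04 over all 11964 such genes, so the middle of the pathway lay close to the middle of all genes.

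**Figure D1:**
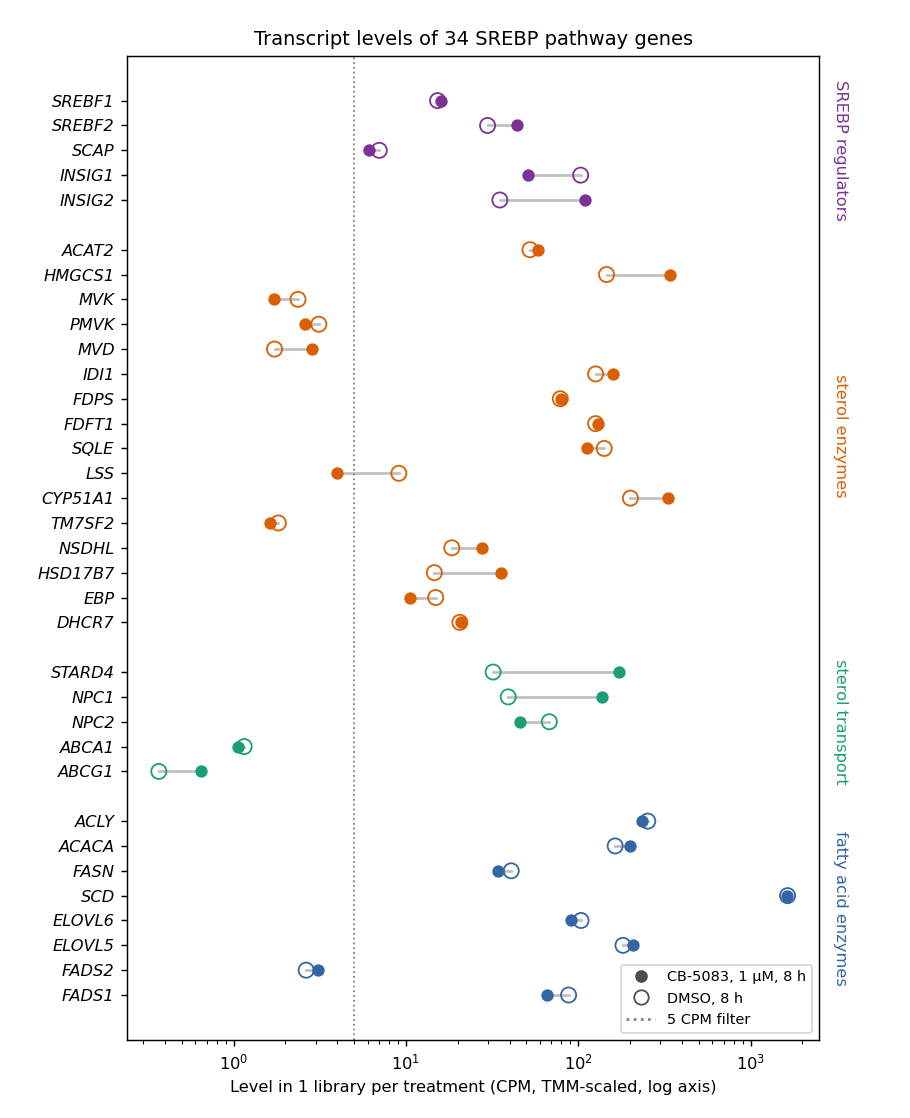
Level of each of the 34 genes in the CB-5083 library (filled points) and the DMSO library (open rings), in CPM on a log axis, by class, with the 5 CPM filter as a dotted line. The widest gaps belong to STARD4 (172 against 32.1 CPM), NPC1 and INSIG2, whereas the points of SCD, FDPS and DHCR7 coincide.

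Among the regulators, the INSIG genes lay in opposite directions. INSIG2 stood at 110.2 CPM with CB-5083 and 35.1 CPM with DMSO, 3.14-fold higher (95% counting interval 2.93 to 3.36). INSIG1 stood at 51.2 CPM with CB-5083 and 103 CPM with DMSO, 2.02-fold lower (1.90 to 2.15). The pair thus exchanged places, INSIG2 being the more abundant per length with CB-5083 and INSIG1 with DMSO. The log2 ratio of INSIG1, -0.9997 with the added 1, fell just short of the call, which it passed with library totals (-1.34) and with the authors' own scaling (-1.09).

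Because the scaling between libraries cancels in a ratio of genes within a library, the balance of the INSIG pair does not depend on it. Per transcript length, INSIG2 was at 2.18 times the level of INSIG1 in the CB-5083 library and at 0.344 times in the DMSO library. The shift between the libraries was 6.34-fold (5.78 to 6.94). Both encoded proteins hold SCAP in the ER, and INSIG2 is the form whose gene is not a classic SREBP target.

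The SREBP genes themselves differed less. SREBF2, whose product mainly drives cholesterol genes, was at 44.4 CPM with CB-5083 and 29.8 CPM with DMSO, 1.49-fold higher (1.37 to 1.62) and not called. SREBF1, whose product mainly drives fatty acid genes, was at 16.01 CPM with CB-5083 and 15.3 CPM with DMSO, a fold of 1.05 whose interval of 0.921 to 1.19 includes 1. SCAP, at 6.12 CPM with CB-5083 and 7.01 CPM with DMSO, also had an interval around 1 (0.713 to 1.07). Both intervals are by TMM, and by library totals the log2 folds were -0.27 for SREBF1 and -0.54 for SCAP. Per length, the ratio of SREBF2 to SREBF1 was 2.23 with CB-5083 and 1.57 with DMSO. The median log2 ratio of the 5 regulators was 0.06.

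**Figure D2:**
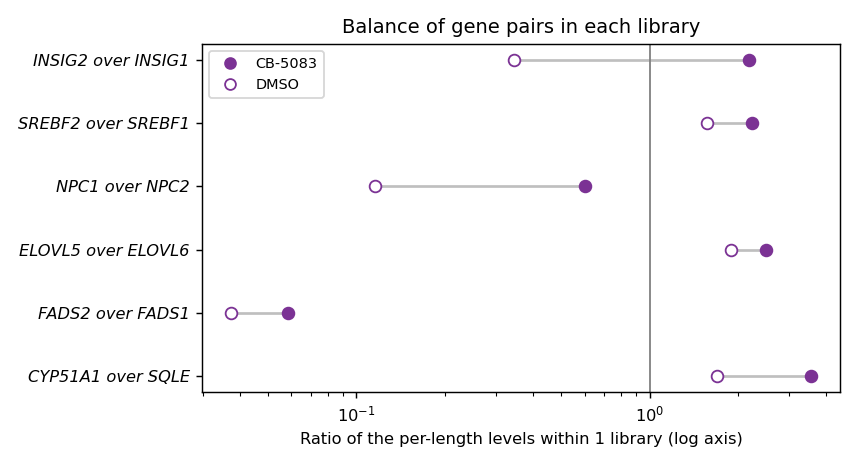
Per-length level of the first gene over that of the second within the CB-5083 library (filled) and within the DMSO library (open), on a log axis; the vertical line marks equal levels. INSIG2 over INSIG1 lies at 2.18 with CB-5083 and 0.344 with DMSO, on opposite sides of the line, while each other pair keeps to the same side in both libraries.

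The promoter sequences below are shown because they let the INSIG pair be read beside SREBF2, HMGCS1 and STARD4. They are the 200 bases before a RefSeq transcription start in GRCh38.p14, 5′ to 3′ on the gene's strand, with motif matches in capitals. The motifs were TCACNCCAC (sterol regulatory element, bound by SREBP), CCAAT (bound by NF-Y, a factor that works with SREBP) and TGATGNAA (bound by dimers of ATF4 and C/EBP factors), each searched on both strands, so that CCAAT can appear as ATTGG. INSIG2 and HMGCS1 each have 2 starts in the table, and the first listed is shown.
SREBF2, chr22:41832905-41833104, plus strand: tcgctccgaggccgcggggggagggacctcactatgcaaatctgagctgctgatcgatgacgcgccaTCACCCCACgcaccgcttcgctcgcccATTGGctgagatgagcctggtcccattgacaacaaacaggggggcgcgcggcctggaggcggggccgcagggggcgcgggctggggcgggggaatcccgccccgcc
INSIG1, chr7:155297678-155297877, plus strand: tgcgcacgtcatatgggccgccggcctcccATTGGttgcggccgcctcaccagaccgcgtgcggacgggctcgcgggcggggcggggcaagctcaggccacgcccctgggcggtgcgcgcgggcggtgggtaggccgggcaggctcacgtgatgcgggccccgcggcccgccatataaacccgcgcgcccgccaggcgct
INSIG2, chr2:118088271-118088470, plus strand: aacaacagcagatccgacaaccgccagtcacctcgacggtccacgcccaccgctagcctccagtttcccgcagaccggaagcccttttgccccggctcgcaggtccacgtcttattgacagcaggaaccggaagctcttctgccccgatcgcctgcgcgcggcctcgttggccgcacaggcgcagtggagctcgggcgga
HMGCS1, chr5:43313413-43313612, minus strand: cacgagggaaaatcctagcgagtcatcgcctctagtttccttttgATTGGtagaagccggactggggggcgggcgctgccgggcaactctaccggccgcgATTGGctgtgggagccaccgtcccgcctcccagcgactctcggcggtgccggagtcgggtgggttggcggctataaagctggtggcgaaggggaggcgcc
STARD4, chr5:111512536-111512735, minus strand: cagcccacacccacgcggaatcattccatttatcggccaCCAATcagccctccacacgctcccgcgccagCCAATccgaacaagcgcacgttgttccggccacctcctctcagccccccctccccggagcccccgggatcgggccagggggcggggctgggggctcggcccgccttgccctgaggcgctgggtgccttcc

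In these windows SREBF2 held a sterol regulatory element and a CCAAT box, INSIG1 had 1 CCAAT box, and HMGCS1 and STARD4 each had 2. INSIG2 had no match, and no matches overlapped. The table, which reaches from 250 bases before to 50 bases after each start, held 29 of the 34 members; SQLE, FDFT1, ACAT2, FASN and ABCG1 had no entry. CCAAT occurred in 20 of these 29, made up of 2 of 5 regulators, 11 of 13 sterol enzymes, 2 of 4 sterol transport genes and 5 of 7 fatty acid enzymes, and in 39.7% of all 27305 gene symbols in the table. TCACNCCAC occurred in 1 of 29 (SREBF2) and in 1.39% of all symbols, and TGATGNAA in 0 of 29 and in 4.46%. Of the 6 called genes, HMGCS1, HSD17B7, STARD4 and LSS had a CCAAT box while INSIG2 and NPC1 had none. A match describes letters only and shows no binding. The lack of a match likewise covers these exact letters in this window only, and does not show that a factor cannot bind. Other letters and sequence outside the window were not searched.

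The 16 sterol enzymes did not move as a block. They gave 2 higher, 1 lower and 13 neither, and their log2 ratios ran from -1.02 to 1.22 with a median of 0.04. Only 12 of the 16 reached 5 CPM, so MVK, PMVK, MVD and TM7SF2 are among the 13 without having been callable. Over all genes that reached 5 CPM, 7.22% were called higher and 4.91% lower. Their summed level was 1321 CPM with CB-5083 and 959 CPM with DMSO, 1.38-fold higher (1.36 to 1.40) by TMM. As a share of all counts, without TMM scaling, they held 0.117% with CB-5083 and 0.108% with DMSO. HMGCS1, CYP51A1, IDI1, FDFT1 and SQLE gave the most counts to the sum. Among these, HMGCS1 and CYP51A1 had the highest folds, while FDFT1 was level and SQLE was lower.

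In the first steps, which build mevalonate from acetyl-CoA and turn it into isoprene units, HMGCS1 stood apart. HMGCS1, the HMG-CoA synthase, was at 340.4 CPM with CB-5083 and 146 CPM with DMSO, 2.33-fold higher (2.25 to 2.41); its log2 ratio of 1.21 was 0.87 with library totals, below the call. ACAT2, the thiolase before it, was at 58.7 CPM with CB-5083 and 52.5 CPM with DMSO, a fold of 1.12 (1.045 to 1.196); the sign depends on the scaling, as its log2 ratio was 0.16 by TMM and -0.18 by library totals. ACAT2 overlaps TCP1 by 558 bases, and reads could be shared if strand was not used in counting. IDI1, which interconverts the isoprene units, was at 160 CPM with CB-5083 and 126 CPM with DMSO (1.26-fold, 1.21 to 1.32), and its log2 ratio of 0.34 was near 0 with library totals.

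The kinases MVK and PMVK and the decarboxylase MVD, which act between HMGCS1 and IDI1, were scarce in both libraries. MVK was at 1.72 CPM with CB-5083 and 2.37 CPM with DMSO, PMVK at 2.60 CPM with CB-5083 and 3.13 CPM with DMSO, and MVD at 2.85 CPM with CB-5083 and 1.73 CPM with DMSO. By TMM the counting intervals of MVK and PMVK included a fold of 1, whereas that of MVD (1.65-fold, 1.16 to 2.35) did not. This contrast depends on the scaling, as the log2 folds by library totals were -0.80 for MVK, -0.61 for PMVK and 0.38 for MVD. FDPS, which makes farnesyl diphosphate, was level by TMM at 80.0 CPM with CB-5083 and 78.7 CPM with DMSO (1.016-fold, 0.960 to 1.07). Its log2 fold was -0.32 by library totals.

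From squalene to lanosterol, the enzyme that makes squalene was level and the next ones were lower. FDFT1, the squalene synthase, was at 130.5 CPM with CB-5083 and 126 CPM with DMSO (1.03-fold, 0.989 to 1.08). Its log2 fold was -0.29 by library totals. SQLE, the squalene epoxidase, was at 112 CPM with CB-5083 and 142 CPM with DMSO, 1.27-fold lower (1.21 to 1.32). LSS, which closes the sterol rings, was at 3.98 CPM with CB-5083 and 9.10 CPM with DMSO, 2.29-fold lower (1.84 to 2.87). LSS reached 5 CPM in the DMSO library alone, so it entered the count only through the library in which it was high.

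CYP51A1, the demethylase of lanosterol, was at 333 CPM with CB-5083 and 201 CPM with DMSO, 1.66-fold higher (1.605 to 1.71) and not called. Within a library, CYP51A1 over SQLE was 3.57 per length with CB-5083 and 1.70 with DMSO, a shift of 2.10-fold (1.98 to 2.21) that is free of the scaling. Per length, CYP51A1 was the most abundant sterol enzyme in both libraries at 309 with CB-5083 and 239 with DMSO, whereas LSS was at 2.47 with CB-5083 and 7.24 with DMSO (counts per kilobase, scaled within a library). This pair was chosen after the values were seen.

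Of the later enzymes, HSD17B7, the ketosteroid reductase of sterol demethylation, was at 35.5 CPM with CB-5083 and 14.6 CPM with DMSO, 2.42-fold higher (2.17 to 2.71). Its value is uncertain because a near-identical copy, HSD17B7P2, can share its reads; the copy was at 5.55 CPM with CB-5083 and 2.16 CPM with DMSO, and both summed gave 2.44-fold (2.21 to 2.71). With library totals the log2 ratio of HSD17B7 was 0.90, below the call. NSDHL, a dehydrogenase acting beside it, was 1.504-fold higher (1.35 to 1.67), at 27.8 CPM with CB-5083 and 18.5 CPM with DMSO. EBP, the sterol isomerase that follows, was 1.41-fold lower (1.22 to 1.64), at 10.5 CPM with CB-5083 and 14.9 CPM with DMSO. DHCR7, a reductase of the final steps, was level by TMM at 21.0 CPM with CB-5083 and 20.6 CPM with DMSO, with a log2 fold of -0.31 by library totals. TM7SF2, another sterol reductase, was at 1.62 CPM with CB-5083 and 1.82 CPM with DMSO.

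**Figure D3:**
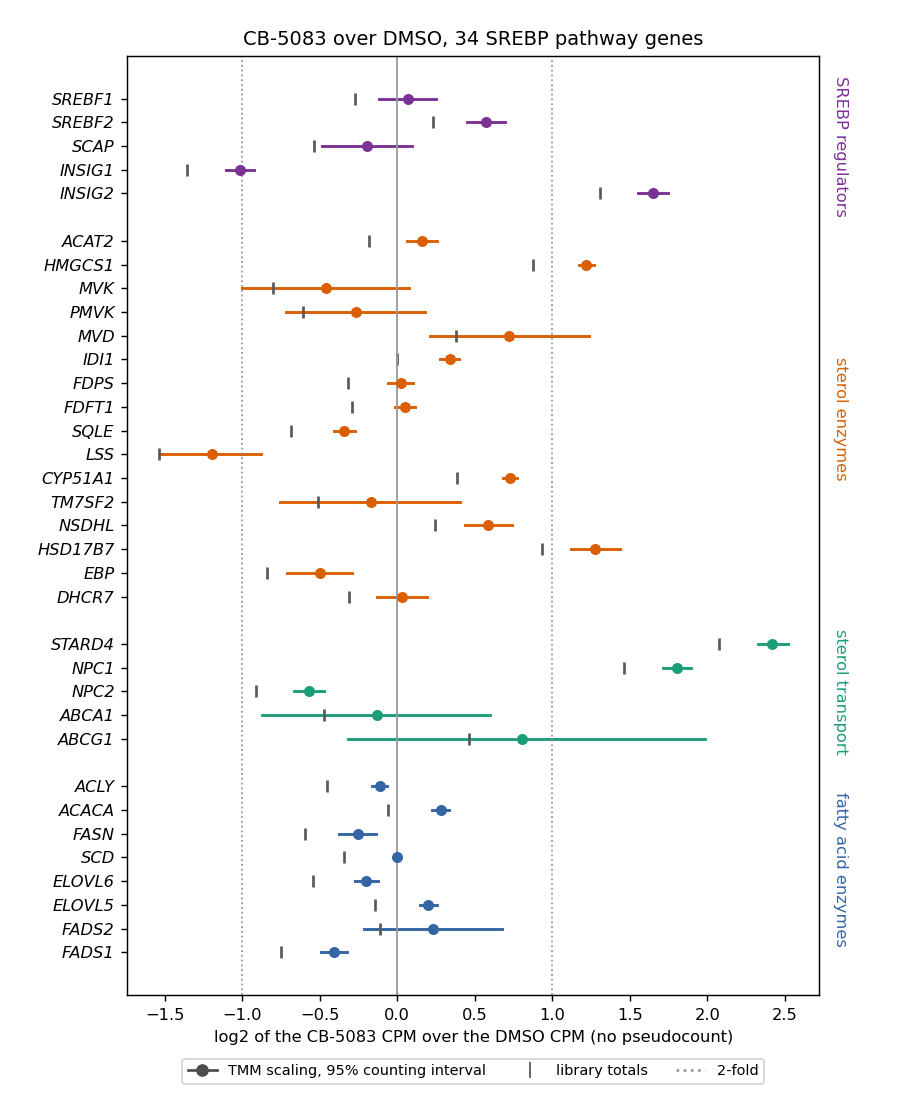
log2 of the CB-5083 level over the DMSO level, without an added constant, for each of the 34 genes (points, TMM scaling; bars, 95% counting intervals), with the value by library totals as a vertical tick and 2-fold as dotted lines. STARD4, NPC1 and INSIG2 lie above 2-fold and LSS and INSIG1 below it by both scalings, all 8 fatty acid enzymes lie inside it, and the wide bars belong to genes at low levels.

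Sterol transport held the highest folds of the 34. STARD4, a cytosolic carrier of cholesterol between membranes, was at 172 CPM with CB-5083 and 32.1 CPM with DMSO, 5.35-fold higher (5.01 to 5.73). NPC1, which exports cholesterol from late endosomes and lysosomes, was at 137 CPM with CB-5083 and 39.3 CPM with DMSO, 3.49-fold higher (3.28 to 3.72). Library totals gave log2 ratios of 2.05 for STARD4 and 1.44 for NPC1, so both were called by either scaling. NPC1 overlaps C18orf8 by 3382 bases; C18orf8 was at 65.7 CPM with CB-5083 and 36.9 CPM with DMSO, and the estimated counts of NPC1 were whole numbers in both libraries.

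NPC2, the soluble lysosomal protein that hands cholesterol to NPC1, lay the other way. It was at 45.9 CPM with CB-5083 and 68.0 CPM with DMSO, 1.48-fold lower (1.38 to 1.59). Per length, NPC1 over NPC2 was 0.60 with CB-5083 and 0.116 with DMSO, a shift of 5.18-fold (4.72 to 5.68). The exporters ABCA1 and ABCG1, targets of the sterol sensor LXR, were scarce in both libraries. ABCA1 was at 1.06 CPM with CB-5083 and 1.15 CPM with DMSO, and ABCG1 at 0.645 CPM with CB-5083 and 0.369 CPM with DMSO, so that counting intervals of 0.548 to 1.52 and 0.802 to 3.95 allowed a difference in either direction. The median log2 ratio of the class, 0.86 over 4 members, fell in the gap between the called genes and the others.

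The 8 fatty acid enzymes all lay within 1.5-fold, as did 67.9% of all genes that reached 5 CPM; by library totals FASN (log2 fold -0.60) and FADS1 (-0.75) lay beyond it. None of the 7 that reached 5 CPM was called, where 7.22% of all such genes were called higher and 4.91% lower. The log2 ratios of the 8 ran from -0.40 to 0.28, and their summed level by TMM was 2473 CPM with CB-5083 and 2475 CPM with DMSO. As a share of all counts, without TMM scaling, they held 0.220% with CB-5083 and 0.279% with DMSO. SCD, the desaturase that makes oleate, was level by TMM at 1636 CPM with CB-5083 and 1641 CPM with DMSO (fold 0.997, 0.985 to 1.01). By library totals the log2 ratio of SCD was -0.35. Per length SCD was the most abundant of the 34 genes in both libraries. ACLY, which supplies cytosolic acetyl-CoA, was at 234 CPM with CB-5083 and 253 CPM with DMSO. ACACA, the acetyl-CoA carboxylase, was at 199 CPM with CB-5083 and 164 CPM with DMSO, and FASN, the fatty acid synthase, at 34.3 CPM with CB-5083 and 40.9 CPM with DMSO. These enzymes of the same route thus had folds of 0.925 (0.895 to 0.955), 1.22 (1.17 to 1.26) and 0.838 (0.771 to 0.911) in that order.

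The elongases and desaturases showed the same narrow spread. ELOVL6, which extends palmitate, was at 90.5 CPM with CB-5083 and 104 CPM with DMSO, and ELOVL5, which extends polyunsaturated chains, at 209 CPM with CB-5083 and 182 CPM with DMSO. FADS1, a desaturase of polyunsaturated fatty acids, was at 66.3 CPM with CB-5083 and 88.0 CPM with DMSO, 1.33-fold lower (1.25 to 1.41). FADS2, the desaturase that acts before it, was at 3.10 CPM with CB-5083 and 2.64 CPM with DMSO; the FADS genes overlap by 802 bases. With library totals all 8 log2 ratios of this class lay below 0, with a median of -0.40, so no direction is given for the class.

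**Figure D4:**
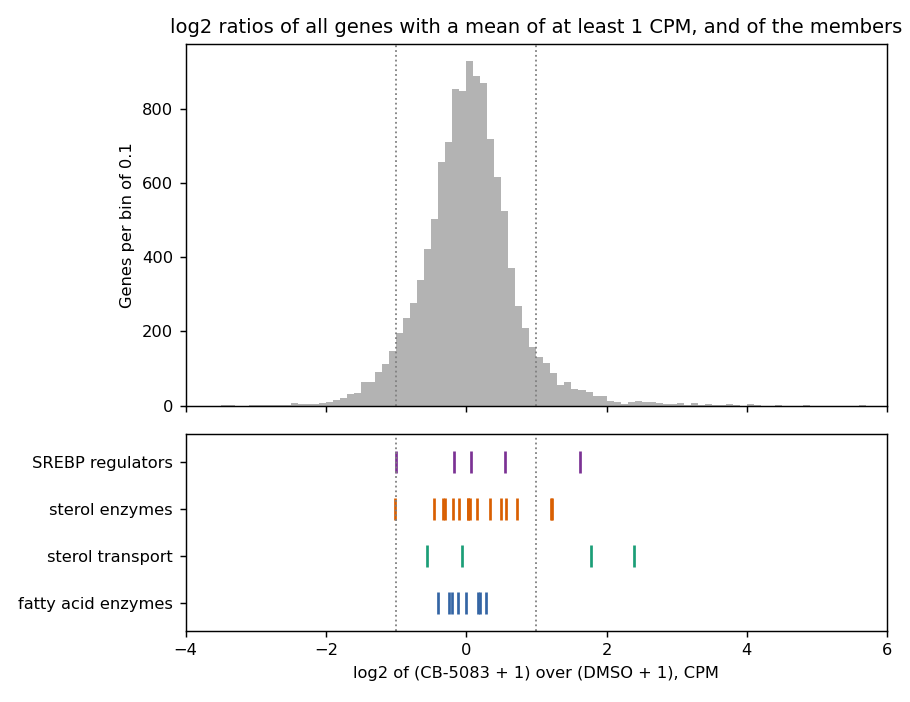
Upper panel, number of genes by log2 ratio for the 11964 genes with a mean of at least 1 CPM; lower panel, the 33 members that reach it, as ticks by class; dotted lines mark 2-fold. The fatty acid enzymes sit between -0.40 and 0.28 near the middle of all genes, while sterol transport spans -0.56 to 2.38.

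Other genes of these routes were read from 4 lists of 57 genes in all, and 2 were called, both higher, where 7.22% of all genes of at least 5 CPM were called higher and 4.91% lower. The members that reached 5 CPM were 13 of 13 for SREBP activation and INSIG turnover, 8 of 10 for other sterol and isoprenoid enzymes, 10 of 15 for sterol transport, storage and the LXR axis, and 18 of 19 for fatty acid supply. The called share was not above that of all genes. Among 15 genes of sterol transport, storage and the LXR axis, OSBP, which exchanges sterol for phosphoinositide between ER and Golgi, was at 241 CPM with CB-5083 and 108 CPM with DMSO, 2.22-fold higher (2.13 to 2.32). Its relative OSBPL9 was at 222 CPM with CB-5083 and 110.3 CPM with DMSO, 2.01-fold higher (1.93 to 2.10). By library totals their log2 ratios were 0.81 for OSBP and 0.66 for OSBPL9, both short of a call. The median of that list was -0.02 over 13 members with a mean of at least 1 CPM. CAV1, the caveola protein, which had the highest CPM of the list, was level at 948 CPM with CB-5083 and 918 CPM with DMSO.

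Of 13 genes of SREBP activation and INSIG turnover none was called, with a median log2 ratio of 0.14. The proteases that release SREBP were level or nearly so, MBTPS1 at 129 CPM with CB-5083 and 117 CPM with DMSO, and MBTPS2 at 53.4 CPM with CB-5083 and 53.3 CPM with DMSO. The highest CPM were those of UBXN4, RNF145 and ERLIN1. UBXN4, an ER membrane protein that binds p97, was at 292 CPM with CB-5083 and 176 CPM with DMSO, the highest fold of the list at 1.66 (1.61 to 1.72). RNF145, a ubiquitin ligase, was at 188 CPM with CB-5083 and 183 CPM with DMSO, and ERLIN1, an ER membrane scaffold, at 173 CPM with CB-5083 and 190.0 CPM with DMSO. UBE2G2, a ubiquitin-conjugating enzyme of ER protein degradation, had the lowest at 0.695 (0.656 to 0.736).

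Of 10 other sterol and isoprenoid enzymes none was called either, with a median of 0.21 over 9 members, 5 of them above 0. MSMO1, a sterol demethylation enzyme that acts with NSDHL and HSD17B7, was at 165 CPM with CB-5083 and 97.2 CPM with DMSO (1.70-fold, 1.63 to 1.78). NUS1, a subunit of the enzyme that makes dolichol, was at 501 CPM with CB-5083 and 299 CPM with DMSO (1.68-fold, 1.64 to 1.72). TMEM97, of the same list, lay the other way at 71.9 CPM with CB-5083 and 117 CPM with DMSO (fold 0.617, 0.584 to 0.651). By library totals the log2 ratios were 0.42 for MSMO1, 0.40 for NUS1 and -1.03 for TMEM97. Of 19 genes of fatty acid activation, elongation and supply none was called, with a median of 0.13. The highest CPM were those of ACSL3, FABP5 and HSD17B12. HSD17B12, a reductase of chain elongation, was at 235 CPM with CB-5083 and 143 CPM with DMSO, the highest fold of the list at 1.65 (1.59 to 1.71). ACSL3, which activates long-chain fatty acids, was at 307 CPM with CB-5083 and 266 CPM with DMSO. FABP5, a fatty acid carrier, lay the other way at 305 CPM with CB-5083 and 373 CPM with DMSO, a fold of 0.816 (0.794 to 0.839). The lowest fold was that of SCD5, a relative of SCD, at 0.507 (0.459 to 0.559), with 20.5 CPM with CB-5083 and 40.5 CPM with DMSO.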

How the data were processed

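What the authors deposited is a scaled signal for every gene, namely estimated counts brought in each library to an upper quartile near 1000 (999.89 with CB-5083, 999.73 with DMSO), read from the values themselves. RSEM 1.2.0 and the build hg19 are named in the submitters' processing notes; the aligner and the use of strand in counting are not given in the sources used here. Of 21116 rows, 1 held no value and was left out. Estimated counts were recovered by dividing by each library's unit step, its commonest low value refined on multiples (1.175 with CB-5083, 1.079 with DMSO). Of these, 55.6% with CB-5083 and 55.3% with DMSO were whole within 0.02, so no count test was used. The counting intervals treat all of them as counts and leave out error in sharing reads between genes. The design had assumed unscaled estimated counts. CPM used TMM factors of 0.888 for CB-5083 and 1.126 for DMSO (trim 30% on ratios, 5% on means). Levels per length used the median length of GENCODE release 29 transcripts matched by RefSeq accession for all 34 genes, within a library only. Intervals of shifts between gene pairs were computed on the log scale from the counts. All 34 members are named, and of the other lists the called genes and the 3 with the highest CPM, apart from an item not reported here; MBTPS1, MBTPS2, UBE2G2 and SCD5 were added after their values were seen. Members and lists were chosen with earlier results of these data known. The scripts were tested on simulated Poisson counts, which hold no fractional counts and no variation between replicates. That test checks the code and not the spread between replicates. Computation used scipy 1.17.1, pandas 2.3.3 and numpy 2.4.6 under Python 3.11.15, with figures by matplotlib 3.10.9.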

Additional observations from a re-analysis of the deposited data

How the results depend on the processing

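With library totals the log2 median over all genes shifted by -0.31, and there were 3 members higher and 2 lower, with medians of -0.29 over all members, -0.26 for the regulators, -0.29 for the sterol enzymes, 0.60 for sterol transport and -0.40 for the fatty acid enzymes; HMGCS1 and HSD17B7 lost their call, and 9 of 34 members changed sign. INSIG1, just short of the call, made 2 lower members with the authors' deposited scaling, with a pseudocount of 0.1 CPM and with a 1.5-fold threshold. The 1.5-fold threshold also added CYP51A1 to give 6 higher. Over all genes, that threshold called 1660 of 9543 higher and 1195 lower. The deposited scaling called 584 of 9557 higher and 584 lower, and the pseudocount of 0.1 CPM 748 of 9543 higher and 578 lower. A filter of 10 CPM left 0 lower, since LSS did not reach it. Over all genes that filter left 632 of 8124 higher and 316 lower. Sterol transport had a median of 1.78 when members below 5 CPM were left out. Under the alternatives to scaling and pseudocount no called member changed sign. Median-of-ratios scaling, no filter and the sum of HSD17B7 with its copy, added after seeing the data, left the counts at 5 higher and 1 lower. All genes gave 710 of 9533 higher and 459 lower by median of ratios, and 751 of 21115 higher and 652 lower without a filter. No paired analysis was possible because each treatment is a single library, and no library could be left out. Depth limits the members under 5 CPM most, since by TMM only MVD of these 7 had a counting interval that excluded a fold of 1.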
